A study of Mus musculus with 83 samples.

Results

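Pol II occupancy over the genes of retinoid receptors and retinoid metabolism was examined in mouse embryonic stem cells that lose the TATA-binding protein (TBP) on demand. The 10 genes were chosen by name, and all 10 were found by their gene symbols among the 27752 genes of the count tables. They are 4 nuclear receptors (Rara, Rarb, Rarg and Rxra), 3 retinoic acid hydroxylases (Cyp26a1, Cyp26b1 and Cyp26c1), the retinal reductase Dhrs3, and the binding proteins Crabp1 and Crabp2.

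All libraries came from C64 cells or their B8 derivative, both of which also carry GFP on histone H3.3. Per the study, C64 also carries a HaloTag at the C-terminus of the largest Pol II subunit, and B8 was made from C64. C64 is a JM8.N4 embryonic stem cell line in which both copies of TBP carry a minimal auxin-inducible degron, so that indole-3-acetic acid (IAA) has the tagged protein degraded. B8 is a clone of C64 with a CRISPR knockout aimed at the whole of Tbpl1, which encodes TRF2, a paralog of TBP, and being 1 clone it cannot separate the knockout from clonal differences. The treated C64 groups were retinoic acid with IAA (25 µM retinoic acid and 500 µM IAA, 16 h), IAA alone (16 h) and retinoic acid alone (16 h), with control cells of the same sequencing run (run 3) for comparison. Per the study's methods, control cells received DMSO. The study's methods give a different retinoic acid concentration from the sample labels, which are followed here. A further run of C64 (run 2) held heat shock with IAA, heat shock (30 min at 42 °C), IAA for 6 h and control. Per the study's methods, 6 h of IAA came before the heat shock, whereas IAA and retinoic acid were given together. B8 was treated with IAA for 6 h or left as control in runs 6 and 8. The IAA concentration was 500 µM in all IAA groups. Each group had 2 libraries per run, 24 in all, and retinoic acid was given to C64 only.

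Pol II was mapped by CUT&Tag, in which an antibody tethers a transposase that cuts and tags the DNA around its target. Values are in CPM, the reads over the whole gene scaled by TMM to the reads in all genes, and measure Pol II on the gene rather than RNA. A C64 library held 3854622 to 5056322 reads in genes, and B8 libraries held 900651 to 1157308 in run 6 and 2330887 to 2523832 in run 8. Tbpl1 had 29 to 75 reads per C64 library (6.18 to 15.8 CPM) and 0 to 10 reads per B8 library (0 to 4.34 CPM), which is Pol II on the gene and not the protein. One B8 control library of run 6 (number 2) stood apart, with 11.8% of its reads in genes that the C64 tables do not list. The stem cell markers Esrrb, Utf1, Dppa5a and Zfp42 had mean densities of 5.29, 4.99, 4.78 and 3.40 CPM per kb in C64 control. Klf4, Pou5f1, Nanog and Tdgf1 had 2.21, 2.14, 1.66 and 1.22. The fibroblast markers Col1a1 and Thy1 had 1.02 and 0.496, and Col1a2, Dcn and Lum had 0.116, 0.0524 and 0.0492. Single control libraries of Tdgf1 (0.790 to 1.43), Pou5f1 (0.710 to 3.05) and Nanog (1.10 to 2.03) overlapped those of Col1a1 (0.936 to 1.19). Sox2 and the neuroectoderm marker Sox1 were at 0 in every library, and whether the way reads were assigned to genes accounts for this was not tested.

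Retinoic acid is made from retinol by way of retinal and acts by binding retinoic acid receptors, which sit on DNA as heterodimers with retinoid X receptors. The bound element is usually a direct repeat of a short motif. Enzymes of the Cyp26 family oxidise retinoic acid to forms that are cleared, and DHRS3 returns retinal to retinol, so that both act to lower retinoic acid. In embryonic stem cells retinoic acid is a widely used signal for leaving pluripotency, and Rarb and Cyp26a1 are long-known targets that carry such elements at their promoters.

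The promoter sequences of Rarb and Cyp26a1 are shown because they were the only ones among these genes with a repeat of this kind near an annotated start site. Promoters from RefSeq (250 bases before to 50 bases after each start, GRCm38.p6) were searched on both strands for 2 copies of NGGTCA or NGTTCA, in any combination, separated by 1, 2 or 5 bases. All 10 genes matched an entry in the promoter table. A repeat with spacing 5 was found in 81 of 32851 promoters (0.247%), with spacing 2 in 130 (0.396%) and with spacing 1 in 132 (0.402%). Each stretch below runs 5′ to 3′ on the strand of the gene, with the repeated motifs in capitals; the Rarb stretch is chr14:16575477-16575596 (minus strand) and the Cyp26a1 stretch chr19:37697688-37697807 (plus strand).
Rarb: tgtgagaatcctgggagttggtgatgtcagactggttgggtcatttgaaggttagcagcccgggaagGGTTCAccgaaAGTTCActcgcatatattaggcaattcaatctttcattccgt
Cyp26a1: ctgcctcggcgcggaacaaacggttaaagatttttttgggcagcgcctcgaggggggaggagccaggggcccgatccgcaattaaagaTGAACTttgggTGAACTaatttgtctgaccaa
The Rarb repeat spans positions -53 to -37 from the start site and lies on the strand of the gene. The Cyp26a1 repeat spans -32 to -16 and lies on the opposite strand, where it reads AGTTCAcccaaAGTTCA. Both have spacing 5. The start site used for Rarb lies inside the gene model that was counted, so part of the counted gene lies upstream of it. A match is a description of letters and not evidence of receptor binding, and genes without a match have none only in these windows. In the authors' list of promoters with a TATA box were Rarb, Rarg, Cyp26a1, Cyp26b1 and Crabp2, and in their TATA-less list were Rara, Rxra, Cyp26c1, Crabp1 and Dhrs3.

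The density of Pol II, given per length of gene so that genes can be compared, differed widely among the 10 genes in C64 control. Rara (chr11:98927818-98974942), which encodes the receptor RARα, was highest at 6.53 ± 0.695 CPM per kb (SD, n = 4 libraries from runs 2 and 3), at or above 94.1% of 17873 genes. Rarg, the RARγ gene (chr15:102234938-102257517), had 4.97 ± 0.784 and Crabp2 (chr3:87948666-87953376) 4.84 ± 1.30 CPM per kb. Next came Cyp26c1 (chr19:37685581-37693398) at 3.42 ± 0.610, Cyp26a1 (chr19:37697798-37701536) at 2.50 ± 0.270 and Cyp26b1 (chr6:84571414-84593908) at 1.64 ± 0.325 CPM per kb. Rxra (chr2:27676440-27762957), with 1.19 ± 0.109, and Crabp1 (chr9:54764748-54773110), with 0.969 ± 0.201 CPM per kb, were near the median of all genes (1.14). Dhrs3 (chr4:144892827-144928209) had 0.395 ± 0.0706 CPM per kb. Rarb, the RARβ gene (chr14:16430839-16819156), was lowest at 0.104 ± 0.0180 CPM per kb, at or above 5.595% of genes. Over the 4 control libraries the ranges of neighbours in this order overlapped for Rarg and Crabp2, Crabp2 and Cyp26c1, Cyp26c1 and Cyp26a1, and Rxra and Crabp1, and not for the other neighbours.

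**Figure D1:**
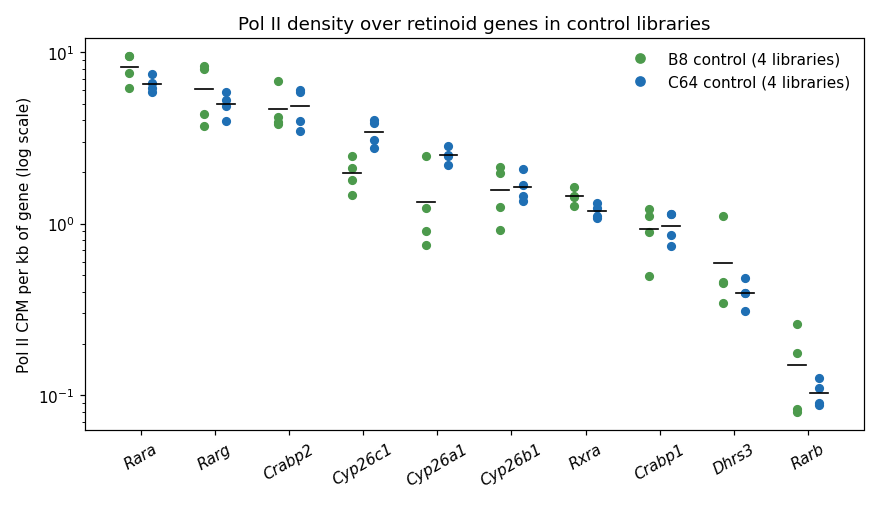
Pol II density (CPM per kb of gene, log axis) of each retinoid gene in 4 B8 control libraries (green, left) and 4 C64 control libraries (blue, right), with black bars at the means. In C64 control the means run from 6.53 CPM per kb for Rara to 0.104 for Rarb.

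These values count the whole gene without regard to strand. Rarb is the longest of the 10 at 388.318 kb and shares 4624 bases (1.19% of its length) with Top2b on the opposite strand, and no other member overlapped a gene in the C64 tables. The B8 tables list more genes, of which Gm48162 shares 4859 bases with Rarb and Gm22061 107 bases with Rara. Cyp26c1 and Cyp26a1 lie 4399 bases apart on the same strand of chromosome 19. Depth limits the short genes most: Cyp26a1 had 17 to 63 reads per C64 library and Crabp1 25 to 63, against 1194 to 1958 for Rara.

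The first question was which of these genes gain Pol II when cells receive retinoic acid, with TBP present. Dhrs3, Cyp26c1 and Rarb did, by 3.09-fold, 2.001-fold and 1.93-fold, in the fit that takes the replicate number as a block. Same-numbered libraries of run 3 deviated from their group means together in all 6 pairs of groups (correlations 0.467 to 0.656), which is why this fit is given beside the one without a block. Each change is given on the log2 scale with its standard error (±). The p-values come from edgeR's quasi-likelihood test, adjusted after Benjamini and Hochberg over all genes tested. A gene is called where the adjusted p is under 0.05. With the block, these small groups leave little spread of each gene's own to estimate. The p-values of that fit then rest largely on a spread shared over genes.

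Dhrs3 had 43.5 and 42.7 CPM with retinoic acid, against 14.04 and 13.96 CPM in control. Both treated libraries were thus about 3 times as high as both controls, and the change was 1.63 ± 0.22 (adjusted p = 1.13e-11 with the block). Rarb had 82.3 and 95.1 CPM with retinoic acid, against 42.8 and 49.1 CPM in control (0.95 ± 0.15, adjusted p = 9.92e-09 with the block). Cyp26c1 had 62.0 and 46.7 CPM with retinoic acid, against 30.2 and 24.1 CPM in control (1.001 ± 0.18, adjusted p = 1.69e-06 with the block). For both genes number 1 and number 2 gave nearly the same ratio, 1.93 and 1.94 for Rarb and 2.05 and 1.94 for Cyp26c1.

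The count of calls rested on the block. With it, 3 of the 10 genes were higher and 0 lower, where 4.75% of 16350 genes were called higher and 6.64% lower. Without it, 0 of the 10 were called, and only 0.0183% of genes were called in either direction, although 1008 genes and 3 of the 10 had an unadjusted p under 0.05. The changes without the block were of the same size, with adjusted p = 0.216 for Dhrs3, 0.417 for Rarb and 0.481 for Cyp26c1 in edgeR's test. Dhrs3 was called under more settings than Rarb and Cyp26c1, and was called without a block by edgeR's likelihood ratio test (adjusted p = 3.42e-05) and by DESeq2 (adjusted p = 0.00262). Under scaling to the spike-in reads, which moved the median log2 change of all genes to -0.29 with the block, Dhrs3 was still higher (1.32 ± 0.36, adjusted p = 0.0369), whereas Rarb (0.64, adjusted p = 0.657) and Cyp26c1 (0.70, adjusted p = 0.568) were not called.

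Cyp26a1 was not among the genes that passed. It had 13.1 and 8.46 CPM with retinoic acid, against 9.36 and 9.23 CPM in control, and its groups overlapped. Its change of 0.20 had a 95% interval of -0.46 to 0.86 with the block, and without it a change of 0.22 had an interval of -0.64 to 1.07. Cyp26b1, the family member best known from limb and germ line, had 44.6 and 42.7 CPM with retinoic acid, against 37.6 and 46.8 CPM in control, which overlapped.

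The other receptors did not pass either. Rara had 279 and 299 CPM with retinoic acid, against 352 and 311 CPM in control (-0.20, adjusted p = 0.278 with the block). Rarg had 82.9 and 79.2 CPM with retinoic acid, against 109 and 89.4 CPM in control (-0.29, adjusted p = 0.156 with the block). Both treated libraries lay under both controls for these genes, a pattern that 17.1% of all genes had. Rxra had 112 and 109 CPM with retinoic acid, against 106 and 114 CPM in control, with a 95% interval of -0.24 to 0.25. The genes of the cytoplasmic binding proteins overlapped between groups. Crabp2, whose product hands retinoic acid to the receptors, had 24.9 and 30.1 CPM with retinoic acid, against 27.7 and 28.4 CPM in control. Crabp1 had 6.22 and 8.22 CPM with retinoic acid, against 9.57 and 7.20 CPM in control.

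**Figure D2:**
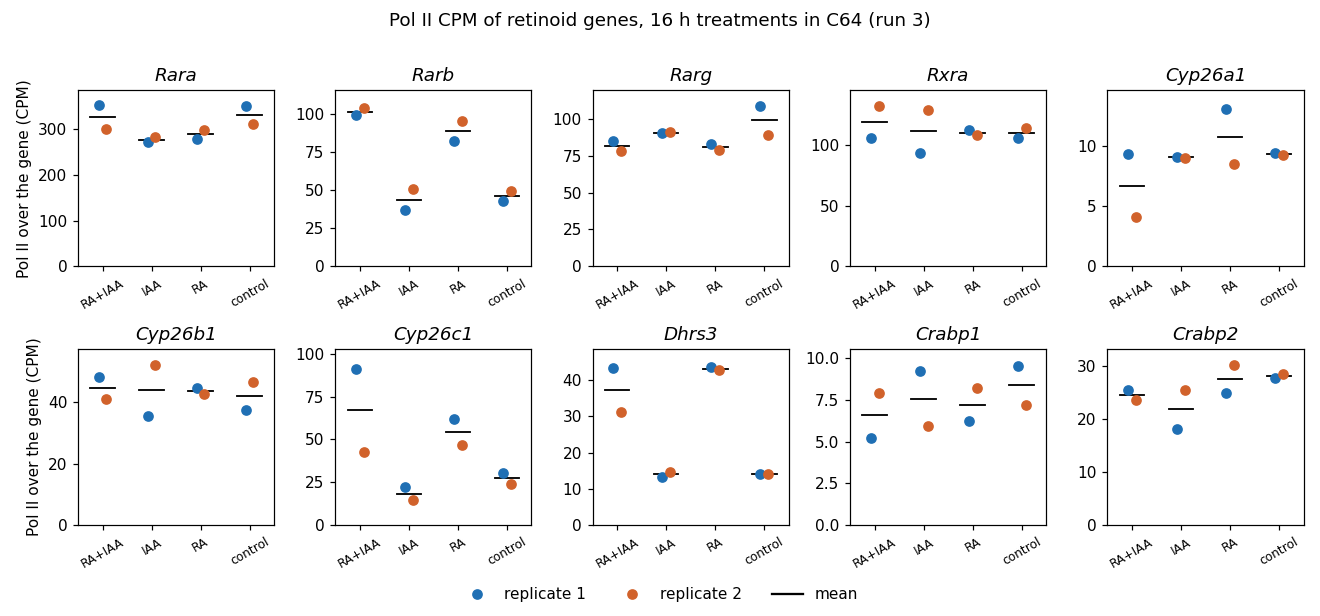
Pol II over each retinoid gene (CPM, axes from 0) in the 8 libraries of run 3, with replicate 1 in blue, replicate 2 in orange and a bar at the mean of each group. Dhrs3, Rarb and Cyp26c1 are higher in both retinoic acid groups than in their references, with Dhrs3 at 43.5 and 42.7 CPM against 14.04 and 13.96 CPM.

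The next question was whether the gain also appears when TBP is being depleted. Per the study, IAA and retinoic acid were given together, so TBP was not depleted beforehand. The design thus cannot tell whether the start of the gain needs TBP. With IAA given alongside, retinoic acid raised Pol II over the same 3 genes, again in the fit with the block. Cyp26c1 had 91.5 and 42.4 CPM with retinoic acid and IAA, against 21.98 and 14.5 CPM with IAA alone, a 3.55-fold difference (1.83 ± 0.21, adjusted p = 1.46e-05). The replicate 1 library was more than 2-fold above replicate 2, but each was well above both of the IAA libraries. Rarb had 99.2 and 104 CPM with retinoic acid and IAA, against 36.8 and 50.5 CPM with IAA (2.35-fold, 1.23 ± 0.17, adjusted p = 0.000156). Dhrs3 had 43.4 and 31.2 CPM with retinoic acid and IAA, against 13.4 and 14.7 CPM with IAA (2.64-fold, 1.401 ± 0.25, adjusted p = 0.00228). The genes that passed thus covered a receptor and 2 enzymes that lower retinoic acid, of which only Rarb stood in the TATA list.

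Of the 10 genes, 3 were higher and 0 lower in this comparison with the block, against 0.75% of 16395 genes higher and 1.07% lower. Without the block 0 of the 10 and 0 of all genes were called by the quasi-likelihood test (629 genes and 3 of the 10 had an unadjusted p under 0.05), while edgeR's likelihood ratio test called the same 3 and DESeq2 called Cyp26c1 and Rarb. Without the replicate 2 library of retinoic acid with IAA all 3 were called without a block, and without its replicate 1 library Rarb alone was called. The 7 other genes had adjusted p of 0.668 or more with the block. Cyp26a1 had 9.27 and 4.08 CPM with retinoic acid and IAA, against 9.04 and 9.01 CPM with IAA (-0.49, 95% interval -1.44 to 0.45). Rara had 353 and 301 CPM, against 272 and 283 CPM with IAA, and Rxra 106 and 133 CPM, against 93.9 and 129 CPM with IAA.

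**Figure D3:**
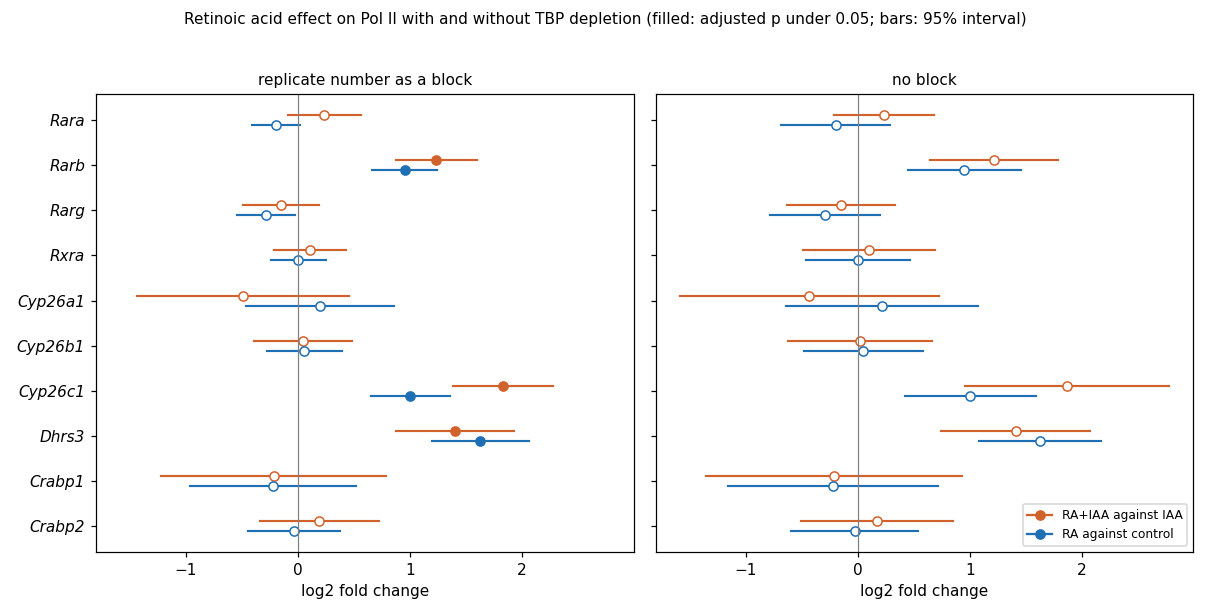
Log2 fold change of Pol II under retinoic acid for each gene, with TBP depletion (orange, RA+IAA against IAA) and without (blue, RA against control), with the replicate number as a block (left) and with no block (right). Filled points have an adjusted p under 0.05 and bars are 95% intervals; the points hardly move between panels, while 3 genes per comparison are filled only with the block.

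Set directly against retinoic acid alone, retinoic acid with IAA changed none of the 10 genes in either fit (0 of 10, where 0% of 16439 genes were called without the block and 1.04% with it, and 104 genes had an unadjusted p under 0.05 without it). For the 3 genes that rose, the log2 difference between these groups with the block was 0.26 for Cyp26c1 (95% interval -0.06 to 0.58), 0.21 for Rarb (-0.05 to 0.46) and -0.21 for Dhrs3 (-0.58 to 0.16). These intervals hold for the fit with the block, relative to the other genes. Without it the interval for Cyp26c1 was -0.59 to 1.204, which includes a 2-fold increase, and its change lay between -0.36 and 0.74 when single libraries were left out. Cyp26a1 had the widest departure, at -0.71 (-1.44 to 0.01).

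The difference between the retinoic acid effects with and without IAA was also tested as an interaction, and no gene of 17032 passed in either fit (0%; 118 genes had an unadjusted p under 0.05 without the block and 580 with it). Of the 10 genes, Cyp26c1 had the lowest p with the block (0.84, 95% interval 0.26 to 1.42, unadjusted p = 0.00591, adjusted p = 0.9999). This reads as a larger fold change under retinoic acid with IAA and does not survive adjustment. In the pairwise fits with the block, IAA changed Cyp26c1 by -0.56 without retinoic acid and by 0.26 with it. Rara was the other gene of the 10 with an unadjusted p under 0.05 (0.43, 95% interval 0.07 to 0.79). Without the block the interval for Cyp26c1 was -0.31 to 2.05. The interaction was 0.28 (-0.16 to 0.72) for Rarb and -0.22 (-0.86 to 0.43) for Dhrs3 with the block.

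The sum of the pluripotency markers was lower in the same retinoic acid libraries. Summed over 9 markers of embryonic stem cells, of which Sox2 was at 0, Pol II was 273 to 378 CPM with retinoic acid and IAA, against 547 to 956 CPM with IAA, and 301 to 447 CPM with retinoic acid, against 775 to 1094 CPM in control. Most of each sum was Esrrb, the one marker of the list called lower in these comparisons (-1.36 with IAA and -1.44 without, adjusted p = 2.92e-05 and 4.97e-36 in edgeR with the block). In the fits with the block, 2 of 6 primitive endoderm markers and 2 of 3 tested neuroectoderm markers were lower with retinoic acid. Of all genes, 6.64% were called lower in that comparison. For mesoderm 0 of 5 and for fibroblasts 0 of 2 tested were called. With IAA present 0 of these lists' genes were called, where 0.75% of all genes were higher and 1.07% lower. The part of this shift in the retinoid gene results was not tested, and in bulk cells a change in the mix of cells and a change within cells cannot be told apart. Spike-in reads made up 0.494 to 0.566% of the number 1 libraries of run 3. In the number 2 libraries they made up 7.55% in control and 10.7 to 11.6% in the treated groups.

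Other genes of the retinoid pathway were read from the same fits with the block, against the 4.75% of all genes called higher and 6.64% lower with retinoic acid, and 0.75% higher and 1.07% lower with IAA present. Of 10 tested genes for retinol binding and uptake, 2 were higher with retinoic acid and 0 lower, with a median log2 change of 0.24 (0.01 over all genes). Among them the retinol transporter gene Stra6 had 29.7 and 33.4 CPM under retinoic acid, against 17.7 and 16.2 CPM in control (0.89 ± 0.23, adjusted p = 0.00183). Of 16 tested genes of retinol and retinal oxidation and reduction, 0 passed with retinoic acid, and 0 of 15 did with retinoic acid and IAA.

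Of 14 receptor partners and coregulators, 2 were higher and 1 lower with retinoic acid. Nrip1, a corepressor that binds liganded receptors, had 263 and 208 CPM with retinoic acid, against 35.1 and 39.6 CPM in control (6.29-fold, adjusted p = 4.28e-83 with the block), and was called without the block as well (adjusted p = 0.0294). With IAA it had 259 and 183 CPM under retinoic acid, against 41.5 and 37.2 CPM without it (5.56-fold, adjusted p = 5.29e-09). Rxrb, another retinoid X receptor, was higher at 0.81 ± 0.25 (adjusted p = 0.0170) and Tbl1xr1, a subunit of the NCoR corepressor complex, lower at -0.39 ± 0.11 (adjusted p = 0.00714), and neither was called with IAA present.

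Among 10 nuclear receptors that bind like elements, 2 were higher and 1 lower with retinoic acid. Nr6a1, the germ cell nuclear factor that represses pluripotency genes, had 342 and 328 CPM, against 184 and 158 CPM in control (0.97 ± 0.11, adjusted p = 2.11e-15), and was the one gene of the list called with IAA present (0.96 ± 0.15, adjusted p = 0.000533). The thyroid hormone receptor gene Thrb was higher at 0.71 and the orphan receptor gene Nr2f2 lower at -1.04 (adjusted p = 0.00918 and 1.25e-05).

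Of 8 tested retinoic acid targets known from stem cells, 3 were higher and 1 lower with retinoic acid. Stra8, a germ cell gene named for its response to retinoic acid, had 276 and 179 CPM, against 14.3 and 19.1 CPM in control (13.4-fold, adjusted p = 1.03e-128 with the block and 0.0281 without). The homeobox gene Cdx1 had 34.2 and 32.6 CPM with retinoic acid, against 10.2 and 17.1 CPM in control (2.50-fold, adjusted p = 1.22e-06 with the block), and Hoxb4 was lower at -0.76 ± 0.27 (adjusted p = 0.0490), close to the threshold. With IAA present Stra8 (12.3-fold) and Cdx1 (3.89-fold) were higher as well. Stra8 and Cdx1 were shown by the study for their response in these libraries. The study also listed Nrip1, and Tspan9 named below, as higher with retinoic acid in them. The direction of these genes is thus not independent evidence.

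The genes whose log2 CPM followed each responding member most closely over the 16 C64 libraries were picked from 16190 genes by Pearson correlation, given as a description since the libraries share treatments and runs. For Rarb these were Scube3 (r = 0.945), Cfap99 (0.945) and Fignl2 (0.937), and for Dhrs3 they were Scube3 (0.955), Stra8 (0.950) and Nrip1 (0.948). For Cyp26c1 they were Tspan9 (0.925), Nsd3 (0.916) and Foxp1 (0.913). Among themselves, Rarb and Dhrs3 had r = 0.891, Cyp26c1 and Dhrs3 0.820, and Rarb and Cyp26c1 0.723.

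TBP depletion alone, without retinoic acid, was examined after 6 h and 16 h of IAA in C64. Per the study, the degradation was incomplete and part of the TBP remained. None of the 10 genes passed at either time. At 6 h 0 of 10 were called, where 0.0433% of 16157 genes were (1.19% with the sets of column names as a block, also 0 of 10), and the log2 changes lay between -0.36 (Cyp26c1) and 0.21 (Cyp26b1 and Crabp1). At 16 h 0 of 10 were called, where 0% of 16349 genes were called without the block and 2.16% with it (319 and 1984 genes had an unadjusted p under 0.05). Cyp26c1 was lowest again, with 21.98 and 14.5 CPM under IAA for 16 h, against 30.2 and 24.1 CPM in control (-0.56, 95% interval -0.998 to -0.13, adjusted p = 0.197 with the block). At 6 h it had 15.9 and 25.3 CPM with IAA, against 21.4 and 31.3 CPM in control (-0.36, -0.98 to 0.27), and its groups overlapped. Rarb had 36.8 and 50.5 CPM with IAA for 16 h, against 42.8 and 49.1 CPM in control, and Dhrs3 had 13.4 and 14.7 CPM, against 14.04 and 13.96 CPM in control.

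Heat shock was the other stimulus given with and without IAA. None of the 10 genes passed with heat shock (0 of 10, where 3.02% of 16332 genes were called) or with heat shock and IAA against IAA (0 of 10, 1.4% of 16486 genes). With the 2 sets of column names in run 2 as a block, an alternative added after the data were seen, again 0 of 10 were called (8.41% of genes with heat shock and 9.76% with heat shock and IAA). The largest changes with heat shock were 0.62 for Crabp1 (12.6 and 11.1 CPM, against 9.46 and 6.18 CPM in control, adjusted p = 0.474) and 0.53 for Cyp26b1 (46.6 and 43.2 CPM, against 32.4 and 30.5 CPM in control, adjusted p = 0.302). Dhrs3 had 21.9 and 19.2 CPM with heat shock and IAA, against 12.2 and 14.7 CPM with IAA (0.62, 95% interval 0.01 to 1.23, adjusted p = 0.292).

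The Cyp26b1 value with heat shock and IAA depended on the library. It had 54.6 and 16.5 CPM in these libraries, against 40.0 and 32.2 CPM with IAA, so that 1 library was above and 1 below both references. Its change was -0.01 with both libraries, -1.13 without the first and 0.59 without the second. Heat shock with IAA against heat shock alone called 0 of the 10 (0% of 16628 genes, 0.65% with the set block; 160 genes had an unadjusted p under 0.05), and the interaction called 0 of 10 (0% of 16961 genes; 121 had an unadjusted p under 0.05). In the pathway lists the retinol dehydrogenase gene Rdh16 (1.77 ± 0.41, adjusted p = 0.0246) and Aldh1a2, which makes retinoic acid from retinal (1.02 ± 0.26, adjusted p = 0.0433), rose with heat shock. The coregulator genes Med1 (-1.67 ± 0.31, adjusted p = 0.00842) and Tbl1xr1 (-1.33 ± 0.23, adjusted p = 0.00625) fell with it, and fell also with heat shock and IAA (-1.81 and -1.41, adjusted p = 0.0237 and 0.0231). Of the 3 neuroectoderm markers tested, Nes (1.07, adjusted p = 0.0242) and Otx2 (1.22, adjusted p = 0.0371) were also higher with heat shock, and the sum of that list was 169.6 to 259 CPM with heat shock, against 108 to 118 CPM in control. Their part in the changes of the pathway genes was not tested.

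**Figure D4:**
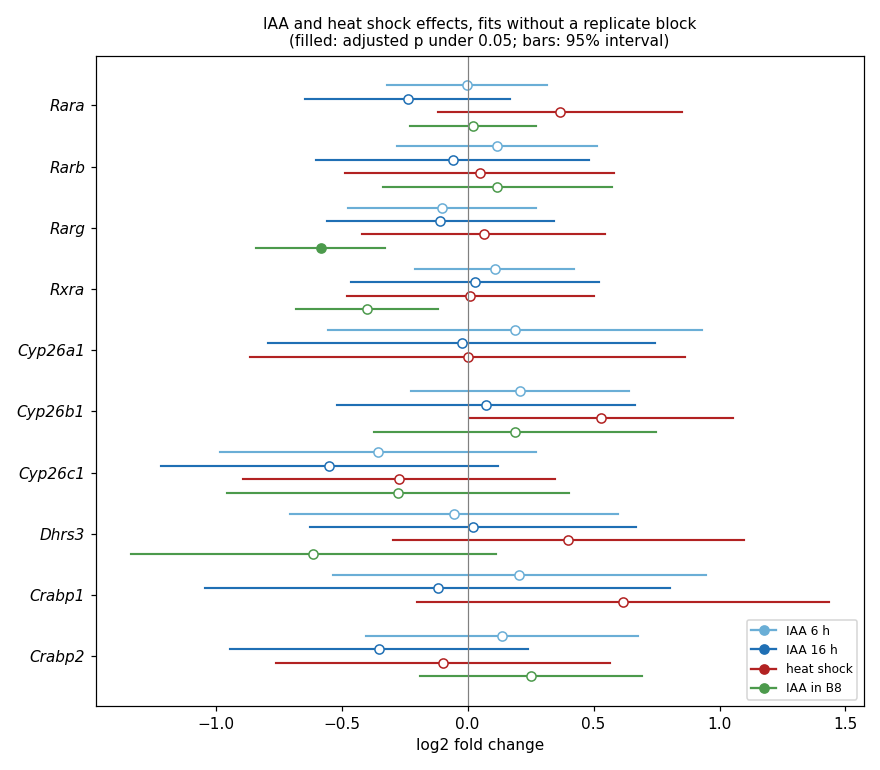
Log2 fold change of Pol II for each gene with IAA for 6 h, IAA for 16 h and heat shock in C64 and with IAA for 6 h in B8, from fits without a replicate block. Filled points have an adjusted p under 0.05 and bars are 95% intervals; Rarg with IAA in B8 (-0.58) is the 1 filled point, and Cyp26a1 and Crabp1 have no B8 point because their counts were below the filter.

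In B8 cells, made to lack TRF2, IAA depletes TBP as well, though a degron can leave part of its target behind. Of the 8 genes with enough reads, Rarg was lower with IAA and 0 were higher, where 3.61% of 12686 genes were called lower and 2.62% higher; Cyp26a1 and Crabp1 were not tested. Rarg had 73.4 and 67.2 CPM with IAA in run 6, against 97.8 and 83.8 CPM in control, and 105 and 111 CPM with IAA in run 8, against 179.7 and 188 CPM in control. The change with run as a block was -0.58 ± 0.12 (adjusted p = 0.0104). Within run 6 it was -0.42 (adjusted p = 0.475) and within run 8 -0.71 (adjusted p = 1.69e-07). The call was lost without replicate 3 of the B8 IAA libraries of run 8 (-0.56, adjusted p = 0.0534) or of the B8 control libraries of that run (-0.53, adjusted p = 0.0648). In C64 the 6 h change of Rarg was -0.10 (95% interval -0.47 to 0.27), and the difference between the lines was not tested.

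Rxra, the partner of all retinoic acid receptors, had 74.3 and 104 CPM with IAA in run 6, against 109.6 and 123 CPM in control, and 102 and 94.5 CPM in run 8, against 125 and 142 CPM in control (-0.40 ± 0.13, adjusted p = 0.0890). It passed without the B8 control library that stood apart (-0.37, adjusted p = 0.0281), where 15.1% of 14039 genes were called. Rarb and Cyp26b1 went opposite ways in the 2 runs. In run 8 Rarb was higher at 0.60 (adjusted p = 0.0236) and Cyp26b1 at 0.86 (adjusted p = 0.00188), where 20.3% of 13535 genes were called, while in run 6 they were at -0.39 and -0.67 (adjusted p = 0.569 and 0.402). Over both runs they were at 0.12 (95% interval -0.34 to 0.57) and 0.19 (-0.37 to 0.75). The embryonic stem cell marker sum was also lower with IAA in B8, at 583 to 610 CPM in run 6, against 702 to 886 CPM in control, and 831 to 933 CPM in run 8, against 1266 to 1362 CPM in control. Most of each sum was Esrrb, the only marker of that list called (-0.51, adjusted p = 0.0158 in edgeR with run as a block). With the replicate block of B8 it was not called. The primitive endoderm sum was 351 to 393 CPM with IAA in run 6, against 307 to 313 CPM in control, and 231 to 243 CPM in run 8, against 195 to 206 CPM in control. The neuroectoderm sum was 141 to 183 CPM with IAA in run 8, against 102 to 104 CPM in control, and overlapped between the groups of run 6. The part of these shifts in the Rarg result was not tested.

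**Figure D5:**
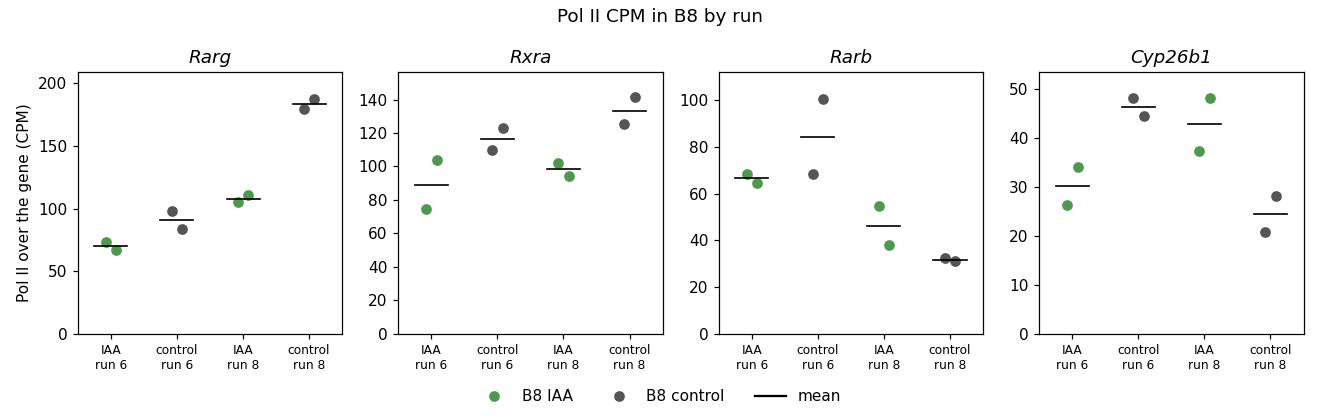
Pol II over Rarg, Rxra, Rarb and Cyp26b1 (CPM, axes from 0) in the 8 B8 libraries, with IAA for 6 h in green left of control in grey for each run, and a bar at the mean. Rarg is lower with IAA in both runs (105 and 111 CPM against 179.7 and 188 CPM in run 8), while Rarb and Cyp26b1 differ in direction between runs.

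B8 control was also set against C64 control of run 2, although cell line and run cannot be told apart in it. None of the 10 genes passed (0 of 10, 0% of 14622 genes; 863 genes had an unadjusted p under 0.05). Cyp26a1 (-1.02, 95% interval -2.15 to 0.12) and Cyp26c1 (-0.82, -1.49 to -0.14, adjusted p = 0.826) had the lowest values. Cyp26c1 had 19.4 and 16.6 CPM in B8 control of run 6 and 14.1 and 11.5 CPM in that of run 8. In C64 control it had 21.4 and 31.3 CPM. With only B8 run 6 in the fit Rarb was called (1.31, adjusted p = 0.0321), where 3.51% of 15250 genes were called. With only run 8 Rara (0.62), Rarg (0.52) and Cyp26c1 (-1.08) were called (adjusted p = 0.00504, 0.0300 and 0.0431). In that fit 5.24% of 14989 genes were called, and the runs thus gave different genes.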

How the data were processed

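Pol II CUT&Tag read counts per gene were analysed for 24 libraries. The deposited counts were made by the authors with Bowtie2 (mm10) and featureCounts 2.0.0 over whole genes of Ensembl GRCm38.102, unstranded, with PCR duplicates kept and reads subsampled per run, so small counts carry counting error and duplicates are not separate molecules. The deposited spike-in read numbers and TATA lists, other values made by the authors, were used for 1 alternative scaling and for annotation. Columns found in more than 1 table (14, with 0 different) were used once. B8 was compared with C64 over the 27752 genes of the C64 tables.

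edgeR 4.0.16 in R 4.3.3 (limma 3.58.1) was run with TMM, filterByExpr (minimum count 20), glmQLFit and glmQLFTest, and Benjamini-Hochberg adjustment over all genes tested at a threshold of 0.05; standard errors are Wald errors. Each comparison used its own groups and run, interactions used the 4 groups of a run, and B8 had run as a block. CPM used TMM factors over all 24 libraries. Each library was left out in turn, and RLE and spike-in scaling, no filter, the likelihood ratio test, DESeq2 1.42.0, joint fits and replicate blocks were tried. In the pairing check the same-numbered libraries of run 3 correlated in all 6 pairs of groups (0.467 to 0.656). On simulated counts for retinoic acid against control (15857 genes), 48.5% of changes of log2 1 and 95.9% of log2 2 were recovered without the block, and 88.9% and 100% with it. The simulation gave every gene a shift between replicate numbers and a fixed dispersion, neither estimated from these data. Better recovery with the block was thus built in, and it cannot tell which fit suits these libraries.

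Libraries are labelled as replicates. Where nothing says they were separate cultures, p-values measure the spread between these libraries, which the fits share in part over genes. With the replicate block of run 3 the shared spread outweighs a gene's own. The 10 genes and the other lists were chosen with earlier results of these data known. All 10 are named, with up to 4 genes per other list and comparison past the threshold (smallest p), Stra8 and Cdx1, and the 3 genes most like each responding member. Some genes that this rule gives are not reported here.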

Additional observations from a re-analysis of the deposited data

Results flagged for a closer look

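In the 4 B8 control libraries, Crabp2 had 32.03 CPM in replicate 1 of run 6, against 17.8, 18.4 and 19.7 CPM in the other 3, a gap of 0.871 of the whole range. Dhrs3 had 39.3 CPM in replicate 2 of run 6, the library that stood apart, against 12.2, 16.0 and 16.1 CPM in the other 3 (0.855 of the range). Each is a library far from the rest of its group, found in 2 of 20 groups examined, where chance gives about 1 in 20.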

How the results depend on the processing

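The number of the 10 genes past the threshold was 0 for retinoic acid against control, and it was 1 with no filter, 1 with the likelihood ratio test, 1 with DESeq2 and 0 to 1 when single libraries were left out (Dhrs3 in each case of 1). With the replicate block it was 3, likewise 3 with the block and RLE scaling, the likelihood ratio test, DESeq2 or a joint fit of the run, and 1 with the block and spike-in scaling. All genes called numbered 3 without the block, 43 with no filter, 132 by the likelihood ratio test, 87 by DESeq2 and 1863 with the block. Spike-in scaling gave 5 genes higher and 138 lower with the block, where TMM gave 777 and 1086, and 3 and 32 without it, where TMM gave 2 and 1. For retinoic acid with IAA against IAA the count was 0, and it was 3 with no filter, 3 with the likelihood ratio test, 2 with DESeq2 and 0 to 3 when single libraries were left out. With the replicate block it was 3, also with RLE scaling, spike-in scaling, the likelihood ratio test or the joint fit, and 2 with DESeq2. All genes called there numbered 0 without and 298 with the block, and spike-in scaling with the block gave 67 higher and 230 lower, where TMM gave 123 and 175. Spike-in scaling moved the median of all genes to -0.24 for IAA for 16 h and to 0.19 for the interaction. Heat shock with IAA against IAA had 0 to 1 without single libraries. IAA in B8 had 1, with 0 to 2 when single libraries were left out, 0 in run 6 alone and 4 in run 8 alone; its replicate block kept Rarg called (adjusted p = 0.0357), although B8 numbers did not correlate within runs (-0.05 and -0.01). B8 against C64 control had 0, then 1 with run 6 alone and 3 with run 8 alone. The replicate block changed no other call. A block by the sets of column names in run 2, like the blocks joined with other settings, was chosen after seeing the data, and it called 0 of the 10. Spike-in scaling of B8 was not run, because 1 library has no spike-in value here. The causes of these differences were not tested.

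Of the 10 genes, Cyp26a1 and Crabp1 rest on the fewest reads, with 17 to 63 and 25 to 63 per C64 library.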
